A study of Rattus norvegicus and Mus musculus with 34 samples.

Results

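The complement system is a cascade of plasma and tissue proteins that tags particles, recruits leukocytes and lyses membranes, and 9 of its genes are described here: the recognition subunits C1qa, C1qb and C1qc, the convertase proteases C2 and Cfb, the central component C3, the stabiliser Cfp and the receptors C3ar1 and C5ar1. They were chosen by name, with earlier results of these data known. All 9 were found among the 20022 genes of the rat tables and among the 51912 genes of the mouse table. The rat samples were healing tissue from within a bone defect in the mandible of wild-type male Sprague-Dawley rats aged 6 to 8 weeks. Each rat had the defect and penicillin, and the inferior alveolar nerve, the sensory nerve of the lower jaw, was left intact (sensory nerve+) or transected (sensory nerve-). Tissue was taken at days 3, 7 and 14, from 3 rats in the sensory nerve+ group of day 3 and from 4 rats in each of the other 5 groups, 23 in all. The mouse samples were RAW264.7 cells, an established macrophage line, stimulated with 100 ng/ml LPS for 6 h without (LPS, n = 6) or with 10 nM CGRP, a sensory neuropeptide (LPS+CGRP, n = 5). All 11 of these samples had LPS, so unstimulated cells could not be compared.

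Complement can be started along several routes that meet at C3. C1q, built from the products of C1qa, C1qb and C1qc, binds antibody complexes, pentraxins and dying cells and starts the classical pathway, in which C2 supplies the protease of the C3 convertase. In the alternative pathway factor B (Cfb) supplies that protease and properdin (Cfp) stabilises the convertase. Cleavage of C3 and C5 releases the anaphylatoxins C3a and C5a, which act through the receptors C3ar1 and C5ar1 on myeloid cells. The liver makes most circulating C3, whereas C1q is made largely by tissue macrophages, and properdin is stored and released by neutrophils.

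The promoters of 4 members are shown because C1qa and C1qb varied together over the rats, whereas C3ar1 fell and Cfp rose between days 3 and 14 in the sensory nerve- rats. Of the 9 members, 5 had an entry in the RefSeq promoter table of the rat assembly GRCr8, a later assembly than mRatBN7.2, to which the reads were aligned. The 250 bases before the annotated start are printed from 5′ to 3′ in the direction of the gene. Capitals mark GAGGAA, the core that PU.1, a myeloid transcription factor, binds, and TGANTCA, the AP-1 motif, on either strand. The windows are chr5:154419934-154420183 on the minus strand for C1qa, chr5:154407828-154408077 on the minus strand for C1qb, chr4:157756531-157756780 on the minus strand for C3ar1 and chrX:3715301-3715550 on the plus strand for Cfp.
C1qa: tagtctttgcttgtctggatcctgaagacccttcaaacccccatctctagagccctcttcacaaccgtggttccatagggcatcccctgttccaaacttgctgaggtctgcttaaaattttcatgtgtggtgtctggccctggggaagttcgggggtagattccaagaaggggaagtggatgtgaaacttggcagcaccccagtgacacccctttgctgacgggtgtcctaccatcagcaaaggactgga
C1qb: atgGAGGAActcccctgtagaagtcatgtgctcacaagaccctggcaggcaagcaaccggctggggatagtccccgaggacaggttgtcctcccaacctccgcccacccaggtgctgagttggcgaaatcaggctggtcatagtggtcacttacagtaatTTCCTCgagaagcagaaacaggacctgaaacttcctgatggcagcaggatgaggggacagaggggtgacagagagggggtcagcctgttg
C3ar1: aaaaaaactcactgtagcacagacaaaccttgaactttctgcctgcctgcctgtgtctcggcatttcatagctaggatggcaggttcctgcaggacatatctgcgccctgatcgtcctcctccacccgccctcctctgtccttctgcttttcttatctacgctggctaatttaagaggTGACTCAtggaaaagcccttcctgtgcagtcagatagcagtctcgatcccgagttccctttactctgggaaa
Cfp: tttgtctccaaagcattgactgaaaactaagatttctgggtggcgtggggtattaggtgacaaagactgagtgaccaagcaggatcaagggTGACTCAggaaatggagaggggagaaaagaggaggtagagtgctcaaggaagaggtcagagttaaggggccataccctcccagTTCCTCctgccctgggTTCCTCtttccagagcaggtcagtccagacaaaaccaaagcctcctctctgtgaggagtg
C1qb held GAGGAA at 247 and 90 bases before the start, and Cfp held it at 76 and 60 bases before the start. TGANTCA lay 72 bases before the start of C3ar1 and 159 bases before that of Cfp. The windows of C1qa and C3 held neither motif, and none of the matches overlapped another. Of the 33469 promoters in the table, 23.3% held GAGGAA and 6.34% held TGANTCA in a window of the same length, and a match is a description of the letters.

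Rat libraries held 14854389 to 18742274 counts (median 17782819) and macrophage libraries 55614185 to 71538840 reads (median 61992328). Levels are given as CPM, counts scaled to library size by TMM, and fold changes on the log2 scale from edgeR's quasi-likelihood test in rats and limma in macrophages, each with Benjamini-Hochberg adjustment over all genes tested and a threshold of 0.05. In the rat tissue the labels name mixed cells, and all 10 macrophage markers were found, with a summed level of 475 to 2887 CPM over the 23 rats. Hepatocyte markers summed to at most 2.47 CPM in any rat. The sensory nerve- samples of day 7 were deposited in a table of their own, so in each comparison with them the table cannot be told apart from nerve state or day. In bulk tissue a lower level can mean fewer cells of a type or less RNA in each cell, which cannot be told apart.

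All 9 members were detected in every rat. In the sensory nerve- rats, 6 of 9 members passed between day 3 and day 14, against 23.5% of all 14449 genes tested, and the 2 days did not overlap for these 6, against 26.7% of genes. Cfb, Cfp, C3 and C1qc rose and both anaphylatoxin receptors, C3ar1 and C5ar1, fell. Without 1 rat at a time 3 to 5 members passed, and C3ar1, Cfb and Cfp passed in all 8 of those fits. Over all genes 1620 to 4346 passed in them, against 3396 with every rat. After scaling by the library total 3 members and 1184 of all genes passed. The 6 erythroid markers held 25.1%, 46.0% and 29.8% of the counts in day 14 replicates 1, 3 and 4. They held 0.241% in day 14 replicate 2 and 1.90% to 11.5% in the day 3 rats. Without day 14 replicate 3, C1qa, C1qc, C3ar1, Cfb and Cfp passed. The makeup of the tissue moved between these days as well: 5 of 9 tested skeletal muscle markers (median log2 fold change 4.77), 4 of 8 lymphocyte markers (2.77) and 3 of 6 endothelial markers (1.00) were called higher, and 4 of 5 tested epithelial markers lower (-6.44). Also called higher were 2 of 7 tested osteoclast markers (1.74) and 2 of 9 tested neutrophil markers (2.13). Called lower were 3 of 10 macrophage markers (-0.72) and 1 of 8 fibroblast markers (-0.24). Of the 6 erythroid markers 0 were called (2.73). In the sensory nerve+ rats 8 of 10 skeletal muscle markers (8.19) and 4 of 6 Schwann cell markers were called higher. Their part in the members' changes was not tested.

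**Figure D1:**
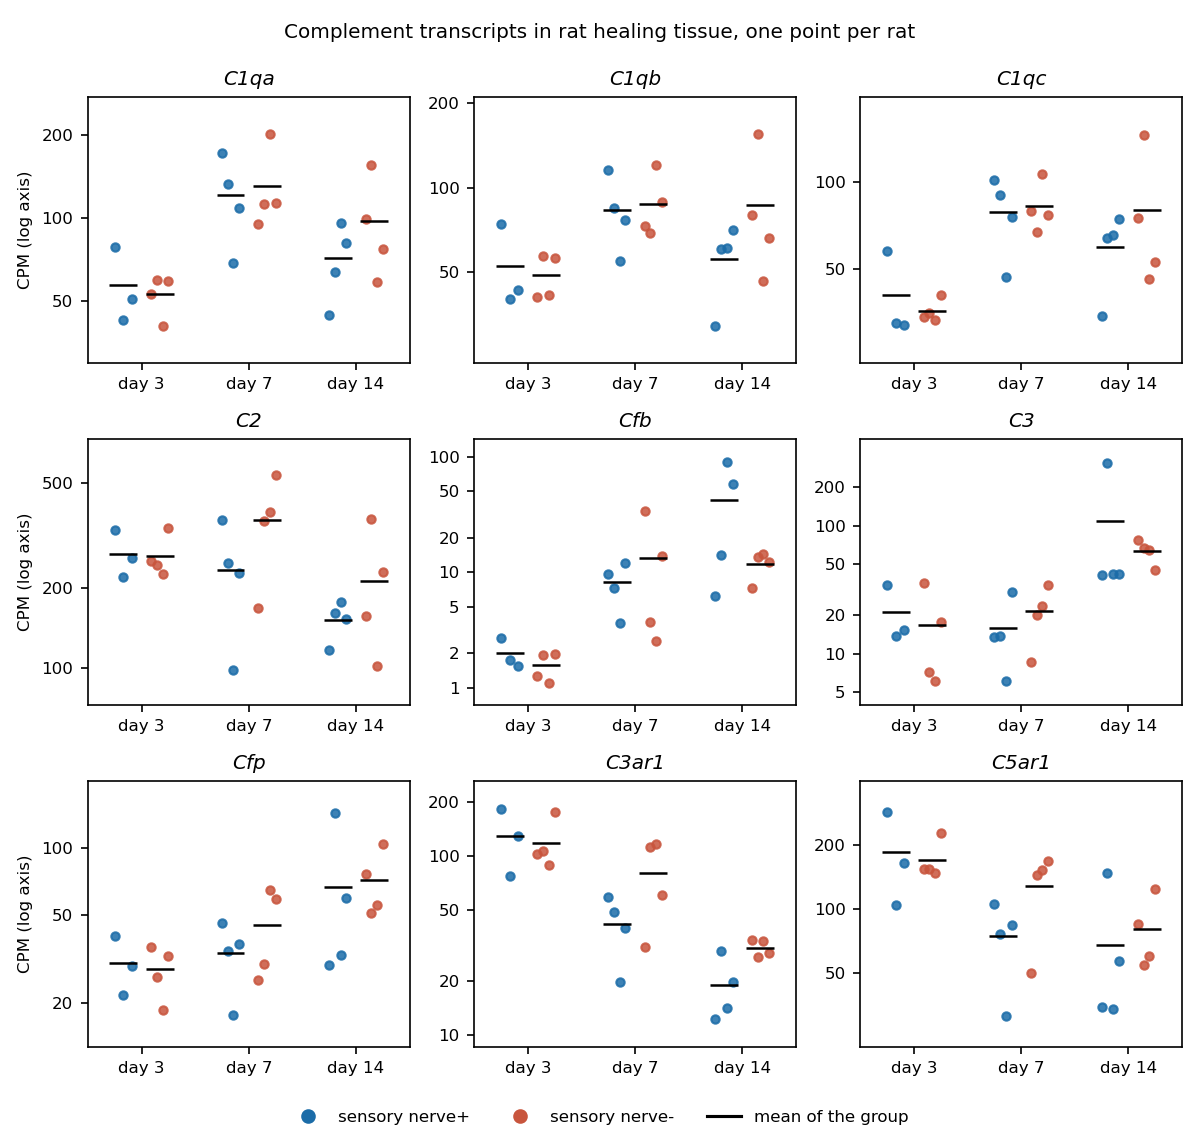
Level of each of the 9 complement genes in CPM (log axis, a scale of its own for each gene) by day, 1 point per rat, sensory nerve+ in blue and sensory nerve- in red, with a line at the group mean. C3ar1 lay between 77.3 and 182 CPM at day 3 and between 12.4 and 33.9 CPM at day 14, while Cfb lay below 2.7 CPM in all 7 rats of day 3 and above 6.2 CPM in all 8 rats of day 14.

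C1qc, the C chain of C1q, was at 57.8, 32.7 and 32.2 CPM in the day 3 rats of the sensory nerve+ group and at 34.3, 35.3, 33.4 and 40.9 CPM in the sensory nerve- rats. At day 7 it was at 101, 90.0, 47.1 and 75.4 CPM with the nerve and at 79.1, 67.3, 106 and 77.1 CPM without it. At day 14 it was at 34.6, 63.9, 65.7 and 74.2 CPM with the nerve and at 75.1, 145, 46.2 and 53.0 CPM without it. In the sensory nerve- rats the ranges of day 3 and of the 2 later days did not overlap, whereas in the sensory nerve+ rats 1 rat of day 3 lay above the lowest rat of each later day.

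All 3 C1q genes were higher at day 7 than at day 3 without the nerve, the 3 members of 9 that passed there, against 10.5% of the 14576 genes tested. They and Cfb did not overlap between these days, 4 of 9 against 21.6% of genes. C1qa rose from 52.9 ± 8.81 to 130 ± 48.0 CPM (SD, n = 4 and 4), with log2 fold change 1.29 (SE 0.25, adjusted p = 0.0214). C1qb rose from 49.0 ± 9.02 to 87.8 ± 23.3 CPM, with log2 fold change 0.83 (SE 0.21, adjusted p = 0.0451). C1qc rose from 36.0 ± 3.40 to 82.3 ± 16.6 CPM, with log2 fold change 1.19 (SE 0.16, adjusted p = 0.014). These calls rested on few rats: C1qc was lost without day 3 replicate 1 or day 7 replicate 3 (adjusted p up to 0.0545), C1qa also without day 3 replicate 2 or 4 (up to 0.0699), and C1qb was kept only without day 7 replicate 1 or 2. C1qb was also lost with library totals and without the filter on low counts (adjusted p = 0.0769 and 0.0566). DESeq2 called Cfb beside the 3 C1q genes, with 3217 called over all genes. The macrophage marker sum was 1226 to 2887 CPM at day 3 and 759 to 2805 CPM at day 7 in these rats, and 0 of its 10 genes passed. Other cell type markers moved between these days: 8 of 10 skeletal muscle markers were called higher (median log2 fold change 7.70, with a sum of at most 486 CPM at day 3 and a median of 6015 CPM at day 7, without overlap) and 4 of 5 tested epithelial markers lower (-6.69). The part of these cell types in the C1q result was not tested.

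In the sensory nerve+ rats the C1q genes had the log2 fold changes 1.12 (SE 0.35, adjusted p = 0.103) for C1qa, 0.70 (SE 0.31, adjusted p = 0.221) for C1qb and 0.98 (SE 0.32, adjusted p = 0.117) for C1qc between day 3 and day 7. None of the 3 passed, and C1qa and C1qc passed without day 7 replicate 3 (1.31 and 1.16, adjusted p = 0.0398 and 0.0479). At day 14 C1qa was at 71.2 ± 22.1 CPM with the nerve and 97.2 ± 41.8 CPM without it. From day 3 to day 14 C1qc rose by the test in the sensory nerve- rats (log2 fold change 1.12, SE 0.34, adjusted p = 0.0479), a call that was kept only without day 14 replicate 2 or 3 (0.67 and 1.30, adjusted p = 0.0337 and 0.0377). C1qa had 0.85 (SE 0.29, adjusted p = 0.0666) and C1qb 0.79 (SE 0.35, adjusted p = 0.132) there, and in the sensory nerve+ rats the values were 0.35, 0.12 and 0.57 for C1qa, C1qb and C1qc (adjusted p from 0.292 to 0.845). The largest C1q levels of day 14 came from 1 sensory nerve- rat, replicate 2, with C1qa, C1qb and C1qc at 155, 155 and 145 CPM.

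The 3 C1q genes followed each other closely from rat to rat. Over the 23 rats, the deviations of log2 CPM from the group mean correlated with a Pearson r of 0.93 between C1qa and C1qb, 0.91 between C1qa and C1qc and 0.96 between C1qb and C1qc. These points share their libraries and scaling. Within a rat the ratio of C1qa to C1qb CPM stayed between 0.972 and 1.67. By the same measure, the genes most like C1qa after the other C1q genes included Folr2 (r = 0.85), a folate receptor of tissue macrophages.

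Relative to macrophage markers, C1q was higher after day 3. The summed C1qa, C1qb and C1qc level per macrophage marker sum was 0.0604 to 0.096 in the sensory nerve+ rats of day 3, 0.226 to 0.359 at day 7 and 0.162 to 0.362 at day 14. Without the nerve it was 0.0541 to 0.0941, 0.0995 to 0.325 and 0.135 to 0.316 on these days. Day 3 did not overlap either later day in either nerve state. C3ar1 moved the other way on the same denominator, with 0.0518 to 0.0725 over the 7 rats of day 3 and 0.0189 to 0.0488 over the 8 rats of day 14, while the sensory nerve- rats of day 7, at 0.0216 to 0.0577, overlapped both. C5ar1 on this denominator overlapped between day 3 (0.0781 to 0.12) and day 14 (0.0379 to 0.127), and so did C2 (0.118 to 0.185 and 0.118 to 0.288). These ratios were chosen after the values were seen, carry no length correction and were given no test.

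**Figure D2:**
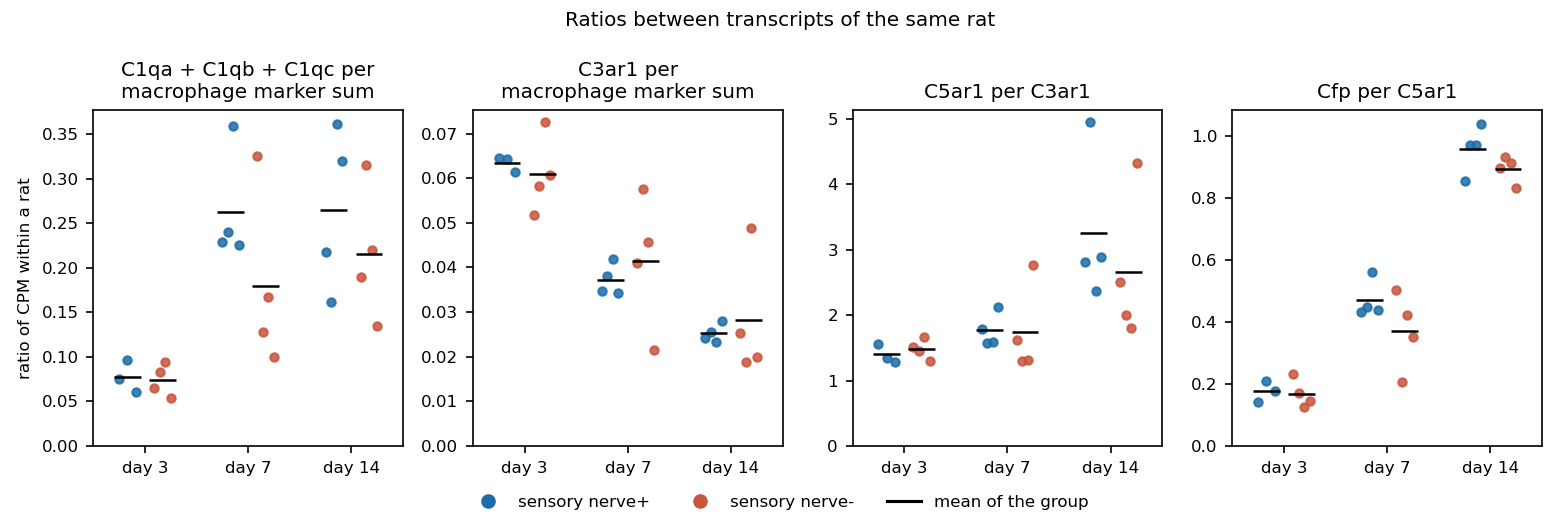
Ratios between CPM values of the same rat, by day, 1 point per rat, sensory nerve+ in blue and sensory nerve- in red, with a line at the group mean. The C1q sum per macrophage marker sum lay at or below 0.096 in all day 3 rats and at or above 0.0995 in all later rats, and Cfp per C5ar1 lay between 0.833 and 1.04 in all 8 rats of day 14.

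C2, the classical pathway protease, was at 332, 220 and 261 CPM in the day 3 sensory nerve+ rats and at 117, 161, 177 and 153 CPM in those of day 14, ranges that did not overlap. The log2 fold change was -0.81 (SE 0.20, adjusted p = 0.0585), and DESeq2 called it (-0.80, adjusted p = 0.0045). Without the nerve C2 was at 253, 245, 227 and 340 CPM at day 3, at 169, 360, 391 and 540 CPM at day 7 and at 158, 367, 101 and 230 CPM at day 14. These ranges overlapped and no comparison passed. The genes whose deviations were most like those of C2 were Slc31a1, a copper transporter (r = 0.92), Anpep, an aminopeptidase of myeloid cells (0.92), and Man2b2, a lysosomal mannosidase (0.90).

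Cfb, the alternative pathway protease, was low at day 3 in every rat. It was at 2.69, 1.77 and 1.55 CPM in the sensory nerve+ rats of day 3, at 9.67, 7.35, 3.68 and 12.2 CPM at day 7 and at 6.24, 14.1, 90.4 and 58.2 CPM at day 14. Without the nerve it was at 1.28, 1.95, 1.12 and 1.99 CPM at day 3, at 33.6, 3.70, 2.54 and 13.7 CPM at day 7 and at 7.40, 13.6, 14.4 and 12.3 CPM at day 14. Every later rat lay above every day 3 rat of its nerve state, and the later groups varied widely, with 2 sensory nerve+ rats of day 14 far above the other 6 rats of that day.

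Between day 3 and day 14 Cfb rose in the sensory nerve- rats from 1.59 ± 0.45 to 11.9 ± 3.12 CPM (SD, n = 4 and 4; log2 fold change 2.87, SE 0.32, adjusted p = 0.0022), and it passed in all 8 fits without 1 rat. In the sensory nerve+ rats the log2 fold change was 4.43 (SE 1.02, adjusted p = 0.0522), it passed without day 14 replicate 2 (4.75, adjusted p = 0.024), and DESeq2 gave 4.43 with an adjusted p of 5.3e-06. At day 7 against day 3, Cfb was the 1 member of 9 that passed in the sensory nerve+ rats, against 6.67% of 15016 genes, with log2 fold change 2.08 (SE 0.47, adjusted p = 0.0458). It was kept only without day 7 replicate 3 (2.32, adjusted p = 0.0116). All 10 skeletal muscle markers were called higher in that comparison (median log2 fold change 8.48, with sums of 31.3 to 78.1 and 6126 to 22870 CPM), and their part in the Cfb result was not tested. The sensory nerve- value was 3.07 (SE 0.82, adjusted p = 0.0524). One member of 9 is 11.1%, near the background share, and the days did not overlap for 2 members, Cfb and C3ar1, with the nerve, against 25.5% of genes. The deviations most like those of Cfb were of Bst2, an interferon-induced membrane protein (r = 0.77), Mas1 (0.76) and Mrpl2, a mitochondrial ribosomal protein (0.76), and Cfb correlated with no other member above 0.33.

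C3, on which the pathways converge, was low until day 7 and higher at day 14. It was at 34.3, 13.7 and 15.3 CPM in the sensory nerve+ rats of day 3, at 13.6, 13.8, 6.08 and 30.3 CPM at day 7 and at 41.1, 309, 41.6 and 41.6 CPM at day 14. Rats without the nerve had it at 35.7, 7.19, 6.16 and 17.8 CPM at day 3, at 8.59, 20.2, 23.5 and 34.3 CPM at day 7 and at 77.9, 67.0, 64.3 and 45.1 CPM at day 14. In both nerve states every rat of day 14 lay above every earlier rat. C3 rose in the sensory nerve- rats between day 3 and day 14 (log2 fold change 1.92, SE 0.54, adjusted p = 0.0366), but of the 8 fits without 1 rat it passed only without day 3 replicate 1 (2.65, adjusted p = 0.018). Between day 7 and day 14 the value was 1.57 (SE 0.38, adjusted p = 0.104), and 0 of 9 members passed in that comparison in either nerve state, against 0.0138% of genes in the sensory nerve- and 0.0202% in the sensory nerve+ rats. At an unadjusted p under 0.05 there were 2 and 3 members, against 23.5% and 9.42% of genes, and DESeq2 called 2 and 0, against 13.8% and 2.19%. C3 was the 1 member whose groups did not overlap between these days, against 12.3% and 5.73% of genes.

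In the sensory nerve+ rats C3 had the log2 fold change 2.40 (SE 0.93, adjusted p = 0.149) between day 3 and day 14, which 1 rat decided: without day 14 replicate 2 it was 1.03. That rat, at 309 CPM, had the highest neutrophil marker sum of all 23, 7186 CPM, against 89.8 to 1695 CPM in the other 3 rats of its group, and the lowest skeletal muscle marker sum of the group, 270 CPM against 15050 to 28890 CPM. Its Cfp and C5ar1 were also the highest of the group, at 143 and 147 CPM. The part of these cell types in its C3 level was not tested. The genes nearest to C3 were Polr2g (r = 0.90), Trir (0.90) and Llph (0.88), none of them a complement gene.

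Cfp, which encodes properdin, was at 40.2, 21.7 and 29.3 CPM in the day 3 sensory nerve+ rats and at 29.7, 143, 33.0 and 59.2 CPM in those of day 14, so these ranges overlapped. Among sensory nerve- rats it was at 35.9, 26.3, 18.6 and 32.6 CPM at day 3 and at 76.3, 50.8, 55.0 and 104 CPM at day 14, and these did not. Cfp rose in the sensory nerve- rats (log2 fold change 1.30, SE 0.28, adjusted p = 0.015), and the call was kept in all 8 fits without 1 rat (1.08 to 1.5, adjusted p up to 0.0463). Scaling by the library total gave 0.90 with an adjusted p of 0.11. In the sensory nerve+ rats the log2 fold change was 1.15 (SE 0.59, adjusted p = 0.248), and it was 0.47 without day 14 replicate 2. The neutrophil marker sum was 62.8 to 919 CPM in the day 3 sensory nerve- rats and 155 to 4607 CPM in those of day 14. These ranges overlapped, and 2 of 9 tested markers were called higher. The part of neutrophils in the Cfp rise was not tested.

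C3ar1, the receptor of C3a, had a lower mean at each later day. It was at 182, 77.3 and 129 CPM in the sensory nerve+ rats of day 3, at 59.0, 48.8, 19.9 and 39.7 CPM at day 7 and at 12.4, 29.7, 14.3 and 19.8 CPM at day 14. Sensory nerve- rats had it at 102, 106, 88.9 and 176 CPM at day 3, at 31.2, 112, 117 and 60.5 CPM at day 7 and at 33.9, 27.3, 33.4 and 28.8 CPM at day 14. Every rat of day 14 lay below every rat of day 3, and of the 4 sensory nerve- rats of day 7, 1 lay within the range of day 14, 1 between the days and 2 within the range of day 3.

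Between day 3 and day 14 C3ar1 fell by 1.97 on the log2 scale in the sensory nerve- rats (SE 0.23, adjusted p = 0.0023), from 118 ± 38.9 to 30.8 ± 3.32 CPM (SD, n = 4 and 4), and the call was kept in all 8 fits without 1 rat. It was the 1 member of 9 that passed in the sensory nerve+ rats, against 5.78% of 15065 genes, where it fell by 2.73 (SE 0.39, adjusted p = 0.0272), from 129 ± 52.4 to 19.0 ± 7.78 CPM (n = 3 and 4). There C3ar1, C2, C3 and Cfb, 4 of 9 members, did not overlap between these days, against 24.6% of genes. That call was kept without day 14 replicate 2 or day 3 replicate 2 (adjusted p = 0.0055 and 0.0422) and was lost without any of the other 5 rats (adjusted p up to 0.117). At day 7 against day 3 the values were -1.59 (SE 0.41, adjusted p = 0.0653) with the nerve and -0.57 (SE 0.41, adjusted p = 0.397) without it. Macrophage markers were lower at day 14 as well: 3 of 10 were called lower without the nerve and 4 of 10 with it, with median log2 fold changes of -0.72 and -1.25. The part of macrophage number in the C3ar1 fall was not tested. Tlr8, an endosomal RNA sensor (r = 0.91), Ptpro, a receptor phosphatase (0.91), and Ak4, a mitochondrial adenylate kinase (0.89), deviated most like C3ar1.

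C5ar1, the receptor of C5a, was at 285, 104 and 165 CPM in the day 3 sensory nerve+ rats and at 34.8, 147, 34.0 and 57.1 CPM in those of day 14. Sensory nerve- rats had it at 154, 154, 148 and 227 CPM at day 3 and at 85.1, 54.6, 60.3 and 124 CPM at day 14. The latter ranges did not overlap, and C5ar1 fell by 1.11 on the log2 scale (SE 0.28, adjusted p = 0.0259). This call was kept only without day 14 replicate 2 or 4 or day 3 replicate 3, and the adjusted p reached 0.0678 in the other fits. In the sensory nerve+ rats the value was -1.40 (SE 0.60, adjusted p = 0.179), and without day 14 replicate 2 it was -2.09 (adjusted p = 0.0233). Genes that deviated like C5ar1 included Myo1f, a myosin of myeloid cells (r = 0.97), and Irak4, a kinase of Toll-like receptor signalling (0.97).

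The receptors and properdin varied together within groups, yet shifted against each other between days. The deviations of C5ar1 and Cfp correlated with r = 0.90 and those of C5ar1 and C3ar1 with r = 0.84 over 23 rats that share libraries and scaling. The ratio of Cfp to C5ar1 CPM was 0.141 to 0.208 in the sensory nerve+ rats of day 3, 0.433 to 0.56 at day 7 and 0.854 to 1.04 at day 14. For sensory nerve- rats it was 0.126 to 0.233, 0.208 to 0.504 and 0.833 to 0.932. Days 7 and 14 did not overlap in either nerve state. C5ar1 relative to C3ar1 was 1.28 to 1.66 over the 7 rats of day 3 and 1.81 to 4.95 over the 8 rats of day 14, ranges that did not overlap. These ratios were likewise chosen after the values were seen and carry no test.

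**Figure D3:**
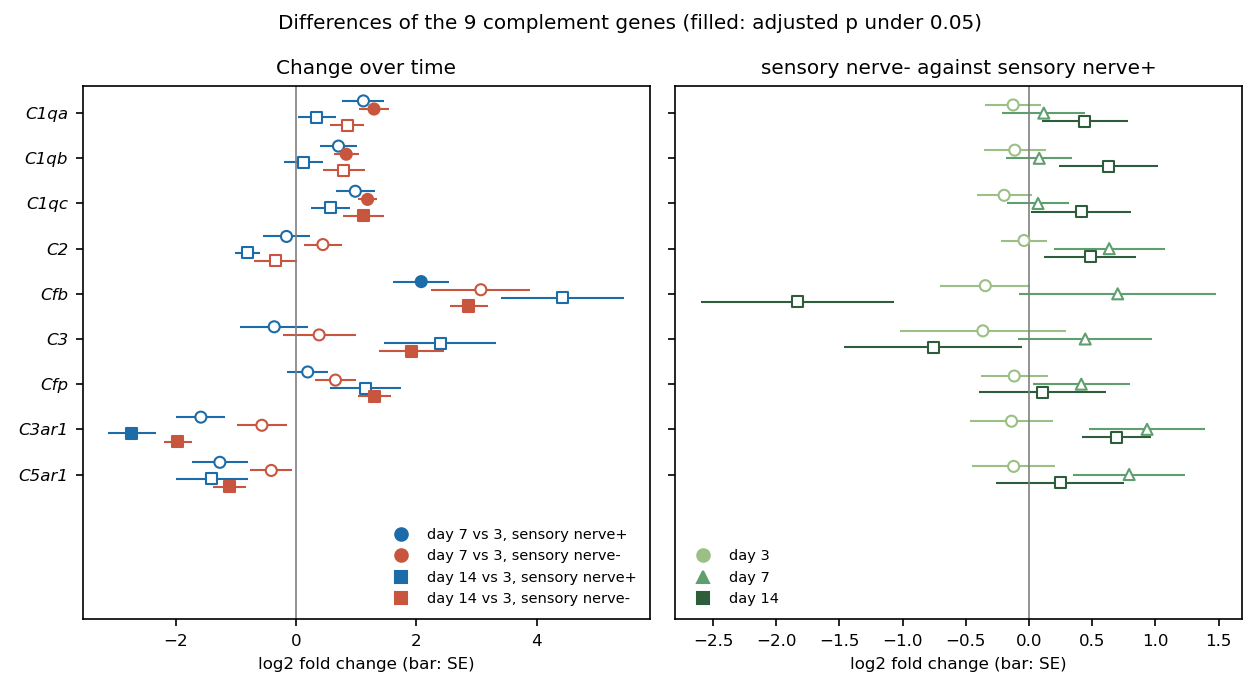
Log2 fold change of each complement gene with its SE, over time in the 2 nerve states on the left and for sensory nerve- against sensory nerve+ rats at days 3, 7 and 14 on the right; filled symbols passed an adjusted p of 0.05. On the left C3ar1 fell at day 14 in both nerve states and Cfb had the largest values, up to 4.43, and on the right no symbol is filled.

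Whether the loss of the sensory nerve changed these genes was compared at each day. None of the 9 members passed at day 3, 7 or 14, and 0 of all genes tested did, 0% of 14695, 14716 and 14610. At an unadjusted p under 0.05 the members that passed numbered 0, 0 and 2, against 0.83%, 1.46% and 9.32% of all genes, and DESeq2 called 0 members on each day, against 0%, 0.0068% and 0.65%. The groups overlapped for all 9 members on every day, and they did not overlap for 1.61%, 0.775% and 3.35% of all genes.

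At day 3 the log2 fold changes of the members lay between -0.37 for C3 and -0.04 for C2, with a median of -0.13, against -0.0074 for all genes. C2 averaged 266 ± 50.4 CPM without and 271 ± 56.5 CPM with the nerve. At day 7 the values lay between 0.07 for C1qc and 0.93 for C3ar1, with a median of 0.45, against -0.0065 for all genes. C3ar1 was at 79.9 ± 41.2 CPM without and 41.8 ± 16.6 CPM with the nerve there (SE 0.46, unadjusted p = 0.0744). C5ar1 and C2 had 0.79 (SE 0.44) and 0.63 (SE 0.44), each with an adjusted p of 1.00. The macrophage marker sum of day 7 was 759 to 2805 CPM without and 475 to 1697 CPM with the nerve.

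At day 14 C3ar1 was at 30.8 ± 3.32 CPM without and 19.0 ± 7.78 CPM with the nerve (log2 fold change 0.70, SE 0.27, unadjusted p = 0.0338, adjusted p = 0.519), and 3 of the 4 rats with the nerve lay below all 4 without it. With library totals, where the median of all genes was -0.41, the C3ar1 value was 0.18. Cfb was at 11.9 ± 3.12 CPM without and 42.2 ± 39.4 CPM with the nerve (-1.83, SE 0.76, unadjusted p = 0.0427, adjusted p = 0.519), a difference carried by the 2 rats at 58.2 and 90.4 CPM. C3 had -0.76 (SE 0.70, adjusted p = 0.711), which turned to 0.57 without sensory nerve+ replicate 2. The median over the 9 members was 0.41, against 0.03 for all genes. Cell type markers differed here too, though 0 were called. The median log2 fold change of a marker list ran from -2.625 for skeletal muscle to 1.97 for erythroid markers. It was 1.70 for osteoclast, 0.39 for macrophage, -1.03 for neutrophil and -2.23 for Schwann cell markers. The macrophage marker sum was 685 to 1449 CPM without and 510 to 1160 CPM with the nerve. The part of these cell types in the members' values was not tested.

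With all 23 rats in 1 fit and day as a factor, 0 of 9 members passed for transection, against 0% of 15858 genes, 1 member passed at an unadjusted p under 0.05 (5.11% of genes), and DESeq2 called 0 members (0.00631% of genes). The log2 fold changes were 0.53 (SE 0.24, unadjusted p = 0.0409, adjusted p = 0.86) for C3ar1, 0.39 (SE 0.22) for C2, 0.33 (SE 0.28) for C5ar1, 0.22 (SE 0.20) for C1qb, 0.16 (SE 0.19) for C1qa, 0.15 (SE 0.25) for Cfp, 0.12 (SE 0.19) for C1qc, -0.22 (SE 0.41) for C3 and -0.49 (SE 0.50) for Cfb. Whether the transection difference itself changed with the day was tested by their interaction. None of the 9 members passed, 0 did at an unadjusted p under 0.05 against 3% of genes, DESeq2 called 0 as it did of all genes, and the smallest unadjusted p was that of Cfb (0.0682). The fall or rise of a member in one nerve state was therefore not shown to differ from that in the other.

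The rest of the pathway was described by a list of 45 other complement genes. Between day 3 and day 14, 4 of 33 tested were called higher and 0 lower in the sensory nerve+ rats, against 5.78% of all genes tested. These were C7 of the membrane attack complex (log2 fold change 3.64, adjusted p = 0.0258), C4a, the classical pathway component (3.75, adjusted p = 0.0364), Serping1, the C1 inhibitor (3.09, adjusted p = 0.0373), and Vtn, vitronectin, a terminal pathway regulator (5.07, adjusted p = 0.0447). In the sensory nerve- rats 2 of 32 were called higher, C4b (3.19, adjusted p = 0.0259) and Serping1 (2.28, adjusted p = 0.0451), and 2 lower, Itgam, the alpha chain of complement receptor 3 (-1.36, adjusted p = 0.0215), and C1qbp, a C1q binding protein of mitochondria (-0.71, adjusted p = 0.0288). These 4 of 32 are a smaller share than the 23.5% called over all genes there. C4a and C4b each had a higher mean at day 14 than at day 3 in both nerve states. Without the nerve C4a was at 21.2 ± 22.7 CPM at day 3 and 61.7 ± 42.3 CPM at day 14. With the nerve C4b was at 1.99 ± 1.31 and 53.8 ± 48.7 CPM. The list's median was 0.39 with and 0.42 without the nerve, against 0.0031 and -0.05 for all genes, and that of the 9 members was 0.35 and 0.85.

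At day 7 against day 3, 4 of 32 other complement genes were called higher in each nerve state and 0 lower, against 6.67% of all genes with and 10.5% without the nerve, the latter near the share in the list. With the nerve they were Vtn (5.22), C4a (2.88), C4b (3.68) and C7 (3.08), and without it C1s, the C1 protease (1.82), C7 (1.75), Cfi, factor I (3.29), and C4b (3.47), with adjusted p from 0.007 to 0.0461. C7 was at 33.5 ± 8.86 CPM with and 71.8 ± 37.4 CPM without the nerve at day 3, and at 275 ± 176 and 243 ± 91.7 CPM at day 7. None of the list passed between days 7 and 14 or for transection. The smallest p values of transection were those of C7, C8g and Cd46 at day 3 (1.09, -0.46 and 0.48, unadjusted p from 0.0342), of Cd93, Cr1l and Cfd at day 7 (0.44, 0.42 and 0.73, from 0.0503) and of Itgax, Cr1l and C4a at day 14 (0.82, 0.39 and -1.35, from 0.0109). The comparisons of days 7 and 14 share their day 3 rats.

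In the macrophages the 9 genes were read in cells of a single type. Of the 10 macrophage markers, 9 were detected and Cd163 had no read in any sample, and their sum was 5398 to 5620 CPM in LPS and 5447 to 5610 CPM in LPS+CGRP samples. The mouse C1q genes lie next to each other on chromosome 4 of GRCm38/mm10 on the minus strand, C1qb at 136880129 to 136886187, C1qc at 136889804 to 136893065 and C1qa at 136895917 to 136898803. C2 and Cfb are neighbours on chromosome 17, at 34862604 to 34898265 and 34856374 to 34862518, with C3 further along at 57203970 to 57228136. Another annotated gene on the same strand, Gm20547, overlaps both C2 and Cfb, so their counts are uncertain where reads fall in shared exons. C3ar1 lies on chromosome 6 at 122847138 to 122856161, C5ar1 on chromosome 7 at 16246743 to 16259540 and Cfp on chromosome X at 20925454 to 20931555.

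C1q was not detectable at this depth in the RAW264.7 cells. C1qa, C1qb and C1qc had 2, 3 and 4 reads over all 11 samples, with at most 2 reads in any one, below the floor of 3 reads (0.0419 to 0.0539 CPM). C2 had 16 to 48 reads in a sample, or 0.265 to 0.721 CPM, against 98.3 to 540 CPM in the rats, values of another species and library kit set side by side and not tested. These 4 members did not pass the filter of 1 CPM in 5 samples and were not tested. The other 5 were abundant. Per kilobase of annotated exon, the LPS samples held Cfp at 85.8 ± 2.48, C3ar1 at 29.3 ± 0.466, C5ar1 at 17.1 ± 0.391, Cfb at 16.2 ± 0.955 and C3 at 12.3 ± 0.533 CPM per kilobase (SD, n = 6). C5ar1 and Cfb, neighbours in this order, did not differ beyond their spread.

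CGRP, for which macrophages carry receptors, was compared with LPS alone. Cfb was at 41.5 to 48.8 CPM (median 45.7) in the LPS samples and at 45.5, 42.1, 44.4, 41.1 and 41.6 CPM in the LPS+CGRP samples. The groups overlapped, and the log2 fold change was -0.09 (SE 0.04, unadjusted p = 0.0309, adjusted p = 0.402 in limma), with a 95% interval from -0.17 to -0.0091, or a change of -10.9% to -0.63%. C3 was at 60.4 to 66.8 CPM (median 62.7) in LPS samples and at 65.2, 61.8, 62.7, 63.9 and 61.0 CPM with CGRP, a log2 fold change of -0.0089 (95% interval -0.07 to 0.05). Cfp was at 142 to 154 CPM (median 151) and at 146, 143, 150, 151 and 144 CPM, a log2 fold change of -0.02 (95% interval -0.07 to 0.02).

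The receptors C3ar1 and C5ar1 had differences of similar size. C3ar1 was at 124 to 128 CPM (median 127) in LPS and at 128, 127, 125, 119 and 123 CPM in LPS+CGRP samples (log2 fold change -0.02, 95% interval -0.06 to 0.02). C5ar1 was at 42.1 to 44.9 CPM (median 44.1) and at 44.2, 44.3, 45.4, 45.5 and 43.2 CPM (log2 fold change 0.02, 95% interval -0.02 to 0.06). None of the 5 tested members passed, against 0.0179% of 11152 genes, 1 did at an unadjusted p under 0.05 against 11.4% of genes, and edgeR and DESeq2 on the recovered reads called 0 members (DESeq2 0.643% of genes). All 5 overlapped between the groups, against 1.22% of genes that did not. The 95% intervals of these 5 genes reached from -10.9% to 4.45%. Of 48 other complement genes 12 were tested and 0 passed, the smallest p values being those of Colec12 (log2 fold change 0.02), Clu (0.10) and Itgam (0.04), with unadjusted p from 0.0691 to 0.207.

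**Figure D4:**
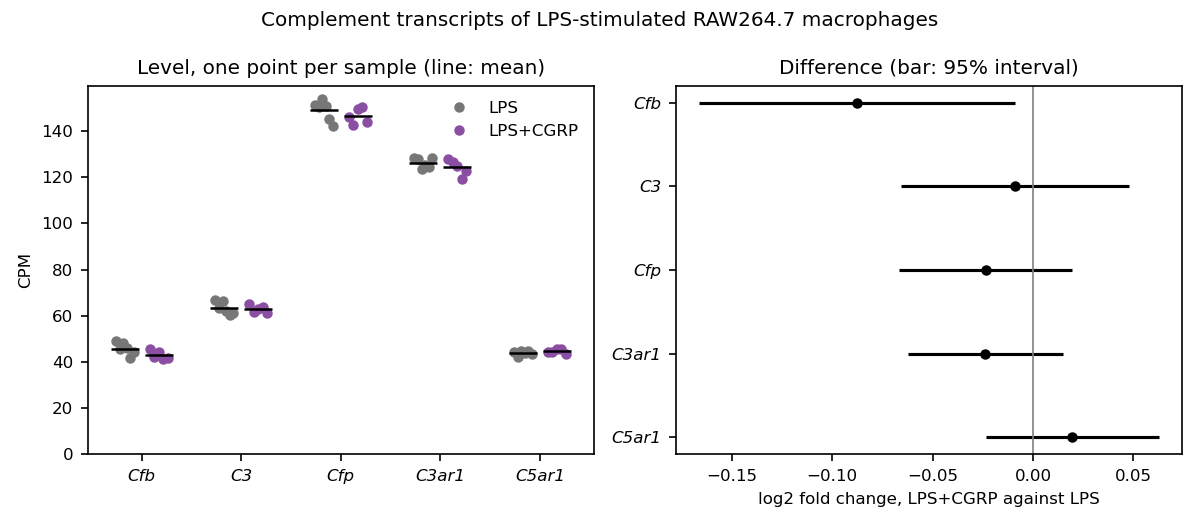
Left, CPM of the 5 complement genes above the filter in each LPS (grey, n = 6) and LPS+CGRP (purple, n = 5) sample of RAW264.7 cells, with a line at the mean; right, the log2 fold change with its 95% interval. The groups overlap for all 5 genes, and only the interval of Cfb, -0.17 to -0.0091, does not reach 0.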

How the data were processed

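Healing tissue of 23 rats and 11 samples of RAW264.7 cells were analysed, grouped by the sample labels. For the rats the authors aligned DNBSEQ reads with HISAT to mRatBN7.2, and the sample labels name Bowtie2 as well. The authors deposited expected counts per gene, which were rounded to whole numbers. The counting program is not given in the sources used here, and a gene's reads may be shared with near copies. For the macrophages the authors trimmed reads with Cutadapt, aligned them with STAR to mm10, used featureCounts and deposited, for each gene and run, a signal equal to whole reads times 1 factor per run (0.877 to 1.14). Dividing by that factor gave whole reads, within 0.01 reads, for 100% of values above 0. The factor was proportional to the run's depth, so values were rescaled to CPM after summing the 2 runs of a sample.

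Rat genes were filtered with filterByExpr, scaled by TMM and compared in edgeR 4.0.16 (quasi-likelihood F test); each fit held the groups compared, the pooled transection and interaction fits on all 23 rats. Macrophage genes at 1 CPM or more in 5 samples were tested with limma 3.58.1 with trend on log2(CPM + 0.5), since the signal is no count; edgeR and DESeq2 1.42.0 on the recovered reads were alternatives. Fold changes of low genes are understated on that scale. Adjusted p (Benjamini-Hochberg) under 0.05 was the threshold. In rats the SE is the log2 fold change divided by the square root of F. Tests were tried on simulated data. R 4.3.3, Python 3.11.15 and matplotlib 3.10.9 were used.

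The other alternatives were RLE size factors, library totals, no filter, pseudocounts of 0.1 and 1, the replicate number as a block and each sample left out. Depth limits genes near the floor of 3 counts, and floors of reads cover counting error only. The intervals given for the macrophage fold changes are from limma and rest on the spread between samples. Nothing in the labels says that the macrophage samples came from separate cultures, so their p-values may measure technical spread. The members and lists were chosen with earlier results of these data known. All 9 members were taken in each comparison, though the text does not print a value for every member in each. Of the other complement genes, those called or the 3 with the smallest p were taken. For each member, the rule took the 3 genes whose log2 CPM deviations from group means correlated best with it. Some genes that this rule takes are not reported here. Marker lists were written by hand. Mouse positions and exon lengths are from GENCODE vM21; rat positions are of GRCr8 promoters alone.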

Additional observations from a re-analysis of the deposited data

Results flagged for a closer look

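In 57 sets of 4 to 6 samples (a member in a group), 2 held a sample far from the others by Dixon's criterion, about as many as chance gives (1 in 20 sets). C3 was at 309 CPM in sensory nerve+ day 14 replicate 2, against 41.1 to 41.6 CPM in the other 3 rats of the group, and this rat also had the highest neutrophil marker sum. C5ar1 was at 227 CPM in sensory nerve- day 3 replicate 4, against 148 to 154 CPM in the other 3.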

How the results depend on the processing

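The number of members called moved with the processing in 5 comparisons, and so did the calls over all genes, given in brackets for the same fit. For day 7 against day 3 in sensory nerve+ rats 1 member was called (1002 of 15016 genes), and 5 with DESeq2 (2808). The number was 0 without the filter (845), 0 with the replicate number as a block (122) and 0 to 3 without 1 rat (254 to 1547). For day 14 against day 3 in these rats it was 1 (871 of 15065), and 3 with DESeq2 (3375) and 2 with library totals (547). It was 0 with the block (0) and 0 to 3 without 1 rat (0 to 3133). In sensory nerve- rats it was 3 for day 7 against day 3 (1524 of 14576), and 0 with the block (2) and 0 to 4 without 1 rat (0 to 1359). For day 14 against day 7 it was 0 (2 of 14447), and 2 with DESeq2 (1991). For day 14 against day 3 it was 6 (3396 of 14449), and 3 with library totals (1184) and 3 to 5 without 1 rat (1620 to 4346). In the transection, interaction and CGRP comparisons it was 0 under every alternative run. Single members moved too over the 5 alternative fits that kept all rats without the nerve. For day 7 against day 3, C1qa and C1qc passed in 4, C1qb in 2 and Cfb in 1. For day 14 against day 3, C3ar1, C5ar1 and Cfb passed in 5, C3 and Cfp in 4, C1qc in 2 and C1qa in 1.

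Differences that did not pass changed sign. For transection at day 3 every member but Cfb did so in at least 1 fit without 1 rat, with C2 at -0.17 to 0.13, C3 at -1.02 to 0.17 and C5ar1 at -0.39 to 0.33, and C2 was 0.055 with library totals. At day 7, without 1 rat, C1qc was -0.11 to 0.22 and Cfb -0.31 to 1.05. At day 14 C3 was -1.05 to 0.57 without 1 rat, and with library totals C5ar1 was -0.33 and Cfp -0.46, from 0.25 and 0.11. Over all days Cfp was -0.028 with library totals, and without 1 rat C1qc was -0.04 to 0.22 and C3 -0.40 to 0.25. C1qb between day 3 and day 14 in sensory nerve+ rats was -0.011 with the block and -0.034 to 0.43 without 1 rat. C3 in macrophages was -0.02 to 0.0082 without 1 sample. The cause of these changes was not tested.

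Replicate numbers were not shown to pair the samples. Deviations of same-numbered samples correlated from -0.37 to 0.44, and in 0 of 10 comparisons was every pair above 0.1. So few pairs cannot show whether same-numbered samples shared a batch, and the block is given as an alternative. Counts over all genes moved further. DESeq2 called 2808, 3375, 3217 and 4852 genes for day 7 and day 14 against day 3 with and without the nerve in the order above, where edgeR called 1002, 871, 1524 and 3396, and 325 and 1991 between days 7 and 14, where edgeR called 3 and 2; for transection at day 14 it called 95 against 0, and for CGRP 87 against limma's 2. The block left 122, 0, 2 and 2350 of the former 4. With library totals the median log2 fold change of all genes was -0.41 for transection at day 14 (0.03 with TMM), -0.42 for day 14 against day 3 (-0.05) and -0.40 for day 14 against day 7 (-0.0097) without the nerve, -0.16 for transection over all days (0.0041) and -0.12 for the interaction (-0.0090). They called 507 genes higher and 72 lower (edgeR with TMM 733 and 269), 358 and 189 (406 and 465) and 308 and 876 (1284 and 2112) for day 7 and day 14 with and day 14 without the nerve, against day 3. Groups of 3 or 4 rats limit each of these tests.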
